A study of Homo sapiens with 18 samples.

Results

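The genes described here are 44 genes of nucleolar ribosome biogenesis and of the growth programme driven by the transcription factor MYC, measured in Burkitt lymphoma cells after an shRNA against FOXO3. They were chosen by name, and each of the 44 symbols was found in the deposited table of every line, out of 17561 genes over the 3 tables, of which 14549 stood in all 3. The groups were BL-41 with FOXO3 shRNA and with scrambled shRNA, Namalwa with FOXO3 shRNA and with scrambled shRNA, and Jiyoye with FOXO3 shRNA and with scrambled shRNA, with 3 libraries each and 18 in all. All 6 groups carried the lentiviral vector pRSI12-U6-shUbiC-TagRFP, in which a fluorescent marker allows transduced cells to be sorted, and all were sorted on day 4 after transduction. Messenger RNA was enriched with oligo-dT before sequencing. BL-41, Namalwa and Jiyoye are established Burkitt lymphoma lines, and Namalwa and Jiyoye carry the Epstein-Barr virus whereas BL-41 does not. The labels name 1 FOXO3 shRNA and describe the libraries of a group as triplicates and do not state whether the cultures were separate, so each p-value reflects variation among the libraries of a group, and that variation may be technical.

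A ribosome is built in the nucleolus. RNA polymerase I transcribes a long precursor rRNA, small nucleolar ribonucleoproteins (snoRNPs) of the box C/D and box H/ACA classes methylate and pseudouridylate it, and successive protein complexes fold and cut it into the small and large subunits. MYC, which a chromosomal translocation puts under immunoglobulin control in Burkitt lymphoma, binds the promoters of many of these genes as a dimer with MAX at a short DNA word, the E-box. FOXO3 is a forkhead transcription factor held back by growth factor signalling and is known in several cell types as an antagonist of MYC targets. Of the 44 genes, 34 act in the nucleolus or on precursor rRNA. The other 10 (CAD, ODC1, SRM, HSPD1, HSPE1, PHB2, NDUFAF4, TBRG4, APEX1 and IPO4) are MYC-responsive genes of metabolism, mitochondria, DNA repair and nuclear import. The annotation column of the deposited tables placed 27 of the 34, and none of the 10 (0), in the nucleolus, against 4.17% of all 17561 genes. That annotation also left out NPM1, FBL, DKC1, GAR1, NOP10, POLR1A and WDR43, so its absence does not place a gene outside the nucleolus. By their listed roles, the name of the group suits 34 of its members better than the other 10.

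For each line the authors deposited 1 table with 1 normalized value per arm, which is not a plain group mean and has no value per library behind it in the files, so that no SD can be given. Below, an arm value is that number, a log2 fold change, positive where FOXO3 shRNA is higher, is the value that the authors' deposited table gives, its SE was recovered from that table's fold change and p, and a gene is said to have risen or fallen where the authors' DESeq2 test gave an adjusted p under 0.05. The targeted gene itself checks the labels. In the authors' deposited tables, FOXO3 had arm values of 544.7 with FOXO3 shRNA and 944.5 with scrambled shRNA in BL-41 (log2 fold change -0.79, DESeq2 adjusted p 3.15e-07). In Namalwa, FOXO3 had 398.4 with FOXO3 shRNA and 850.5 with scrambled shRNA (log2 fold change -1.09, DESeq2 adjusted p 2.49e-09 in the authors' deposited table). In Jiyoye, FOXO3 had 384 with FOXO3 shRNA and 471.2 with scrambled shRNA (log2 fold change -0.30), which did not pass the authors' DESeq2 test (adjusted p 0.187 in their deposited table). The knockdown was therefore not shown at the level of FOXO3 mRNA in the Jiyoye library set labelled FOXO3 shRNA. Of 11 B cell marker genes, 6 fell in BL-41, 2 fell in Namalwa and 2 rose in Jiyoye by the authors' DESeq2 test. Over all genes 14.2% fell in BL-41, 3.81% fell in Namalwa and 8.69% rose in Jiyoye. Their summed arm values were 82678 with FOXO3 shRNA and 123292 with scrambled shRNA in BL-41, 93535 and 106092 in Namalwa, and 156974 and 150784 in Jiyoye. Of the 12 listed markers of other cell types, 12, 10 and 11 were in the tables of BL-41, Namalwa and Jiyoye, and the summed arm values were 361.5 with FOXO3 shRNA and 287.7 with scrambled shRNA, 274.8 and 264.6, and 829 and 996. Of these markers 7, 6 and 5 were under 10 in both arms, and the largest value of 1 gene with scrambled shRNA was 158.1, 191.4 and 701.1. LYZ, CD14 and CD68, markers of myeloid cells, rose in BL-41 and CD14 rose in Jiyoye, while the endothelial marker PECAM1 fell in both lines. Their part in the results below was not tested. In such bulk libraries, fewer cells of a type and less RNA per cell cannot be told apart.

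MYC mRNA is set beside the members because most of them are known MYC targets. In BL-41, MYC fell, with arm values of 3962 with FOXO3 shRNA and 6674 with scrambled shRNA (log2 fold change -0.75 ± 0.17 SE, DESeq2 adjusted p 0.000131 in the authors' deposited table). It was at 21130 with FOXO3 shRNA and 18985 with scrambled shRNA in Namalwa (log2 fold change 0.15, DESeq2 adjusted p 0.589 in the authors' deposited table). In Jiyoye the arm values of MYC were 16892 with FOXO3 shRNA and 16877 with scrambled shRNA (log2 fold change 0.00, DESeq2 adjusted p 0.997 in the authors' deposited table). In the MYC network list, MYC included, 2 rose and 3 fell of 11 genes in BL-41, and 2 fell of 11 in Namalwa. In Jiyoye 1 rose and 1 fell of 13. Over all genes 28.7%, 6.41% and 17.4% were called in these lines. Of the MAX partners that oppose MYC, MXI1 fell in BL-41 (log2 fold change -0.82) and Namalwa (-0.43), MXD3 fell in all 3 lines (-0.76, -0.87 and -0.55), and MNT rose in Jiyoye (0.65), by DESeq2 in the authors' deposited tables. MXI1 stood at -0.48 in Jiyoye, without a call.

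The promoters of the members show what they share before any change of expression is considered. The canonical E-box, the word CACGTG, reads the same on both strands, so a match on one is a match on the other. It was searched from 250 bases before to 50 bases after each RefSeq start in GRCh38.p14. Of the 44 members, 39 had an entry in the promoter table, and RRP12, BOP1, RRS1, NOLC1 and NOP58 had none. The word was present for 22 of the 39 (56.4%), against 13.6% of 7458 genes whose mean arm value reached 100 in all 3 lines, 11.5% of 13996 genes of the tables and 8.77% of all 27305 genes of the promoter table. The median GC content of the windows was 64% for the members and 65% for the genes whose mean reached 100. A match describes the letters only. The members were chosen as genes of a programme driven by MYC, which binds this word, so the higher share among them is not independent of the choice. The following 30-base stretches, 5′ to 3′ on the strand of the gene, are those of the 7 members that both hold the word and passed the authors' DESeq2 test in at least 1 line, with the word in capitals. For APEX1, a base-excision repair enzyme whose window holds 3 sites, 1 longer stretch shows those centred at -102 and -41 from the RefSeq start. It ends just before the GENCODE start, which lies upstream of the RefSeq start, and the third site, at -20, is beyond its end.
GNL3, chr3:52686026-52686055, plus strand: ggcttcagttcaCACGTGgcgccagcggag
SRM, chr1:11060200-11060229, minus strand: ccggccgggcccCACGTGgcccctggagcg
LYAR, chr4:4290068-4290097, minus strand: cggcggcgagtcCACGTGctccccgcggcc
MYBBP1A, chr17:4555340-4555369, minus strand: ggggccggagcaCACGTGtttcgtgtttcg
NOP2, chr12:6568242-6568271, minus strand: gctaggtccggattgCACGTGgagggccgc
IPO4, chr14:24188828-24188857, minus strand: tgtcagaacctcCACGTGctgtccctcccc
APEX1, chr14:20454976-20455190, plus strand: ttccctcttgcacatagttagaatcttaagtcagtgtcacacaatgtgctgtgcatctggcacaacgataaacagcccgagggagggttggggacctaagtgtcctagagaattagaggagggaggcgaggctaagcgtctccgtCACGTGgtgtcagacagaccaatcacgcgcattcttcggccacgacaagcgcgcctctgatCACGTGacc
The members' sites lay close to the start. Of 27 sites, 21 (77.8%) were centred within 50 bases of the RefSeq start, against 480 of 1151 sites (41.7%) of the genes whose mean reached 100. SRM was an exception, with its site centred at -196. HSPD1 and HSPE1, the genes of the mitochondrial chaperonin and its lid, are read in opposite directions from a shared stretch and have the same site, which is counted for each of them. The 2 printed below, the HSPE1 strand of that shared site and the nearer of the NOP10 sites, at -8, the other being at -167, are from members that passed no test in any line.
HSPE1, chr2:197500345-197500374, plus strand: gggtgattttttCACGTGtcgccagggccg
NOP10, chr15:34343130-34343159, minus strand: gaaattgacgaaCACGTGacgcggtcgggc
The word was present for 7 of the 12 members that changed in at least 1 line and had an entry, and for 15 of the 27 that changed in none.

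**Figure D1:**
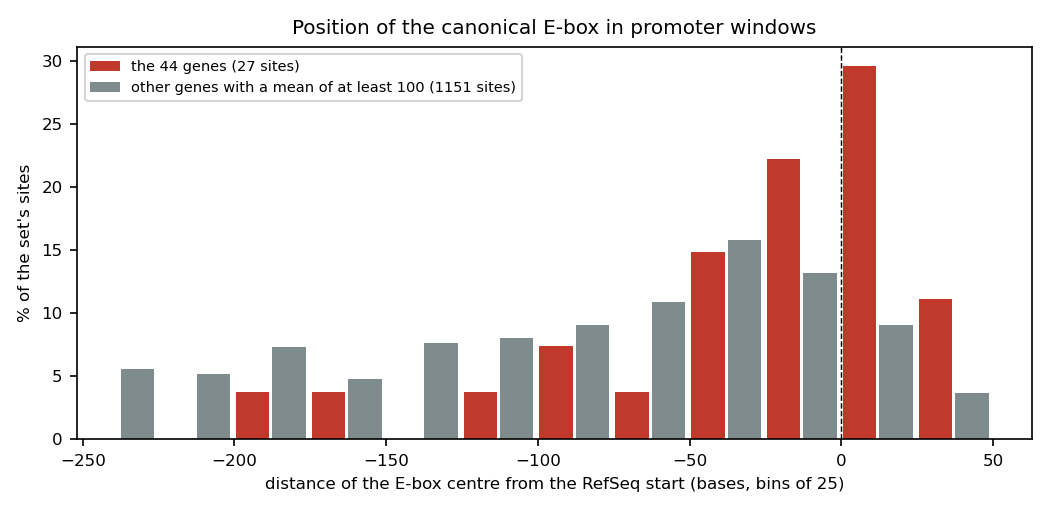
Share of the E-box sites of each set, in %, by the distance of the site's centre from the RefSeq start in bins of 25 bases, for the 44 genes (27 sites) and for other genes whose mean arm value reached 100 (1151 sites). The members' sites gather around the start, with 77.8% within 50 bases, against 41.7% of the other sites.

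Levels between genes were compared per kilobase of transcript, on a scale where the genes of a table sum to 1000000 over the mean of both arms. On this scale, in the scrambled arm, the members in the top 10% of all genes of the table numbered 24 of 44 for BL-41, 26 for Namalwa and 19 for Jiyoye. NPM1, a histone chaperone and scaffold of the nucleolus, had the highest level in every line, with 3032 per kilobase with FOXO3 shRNA and 3229 with scrambled shRNA in BL-41, 2688 and 2835 in Namalwa, and 2645 and 2976 in Jiyoye. UTP20, a large scaffold of the small subunit precursor, had the lowest, with 9.72 and 9.87 in BL-41, 14.8 and 11.5 in Namalwa, and 6.14 and 6.82 in Jiyoye, again with FOXO3 shRNA first and scrambled shRNA after it. NPM1 has 50 pseudogenes in RefSeq, HSPE1 28 and HSPD1 22, so their counts may be shared with near-identical copies. The median member stood at 100.7 with FOXO3 shRNA and 91.4 with scrambled shRNA in BL-41, at 132.5 and 109.8 in Namalwa, and at 67.9 and 62.5 in Jiyoye. In the scrambled arm 38 of 44 members had their highest level in Namalwa, against 43.6% of 8870 genes whose mean reached 100 in all 3 lines, and 32 had their lowest in Jiyoye, against 41.2%. The tables were normalized apart, so the order of the lines is a description without a test.

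**Figure D2:**
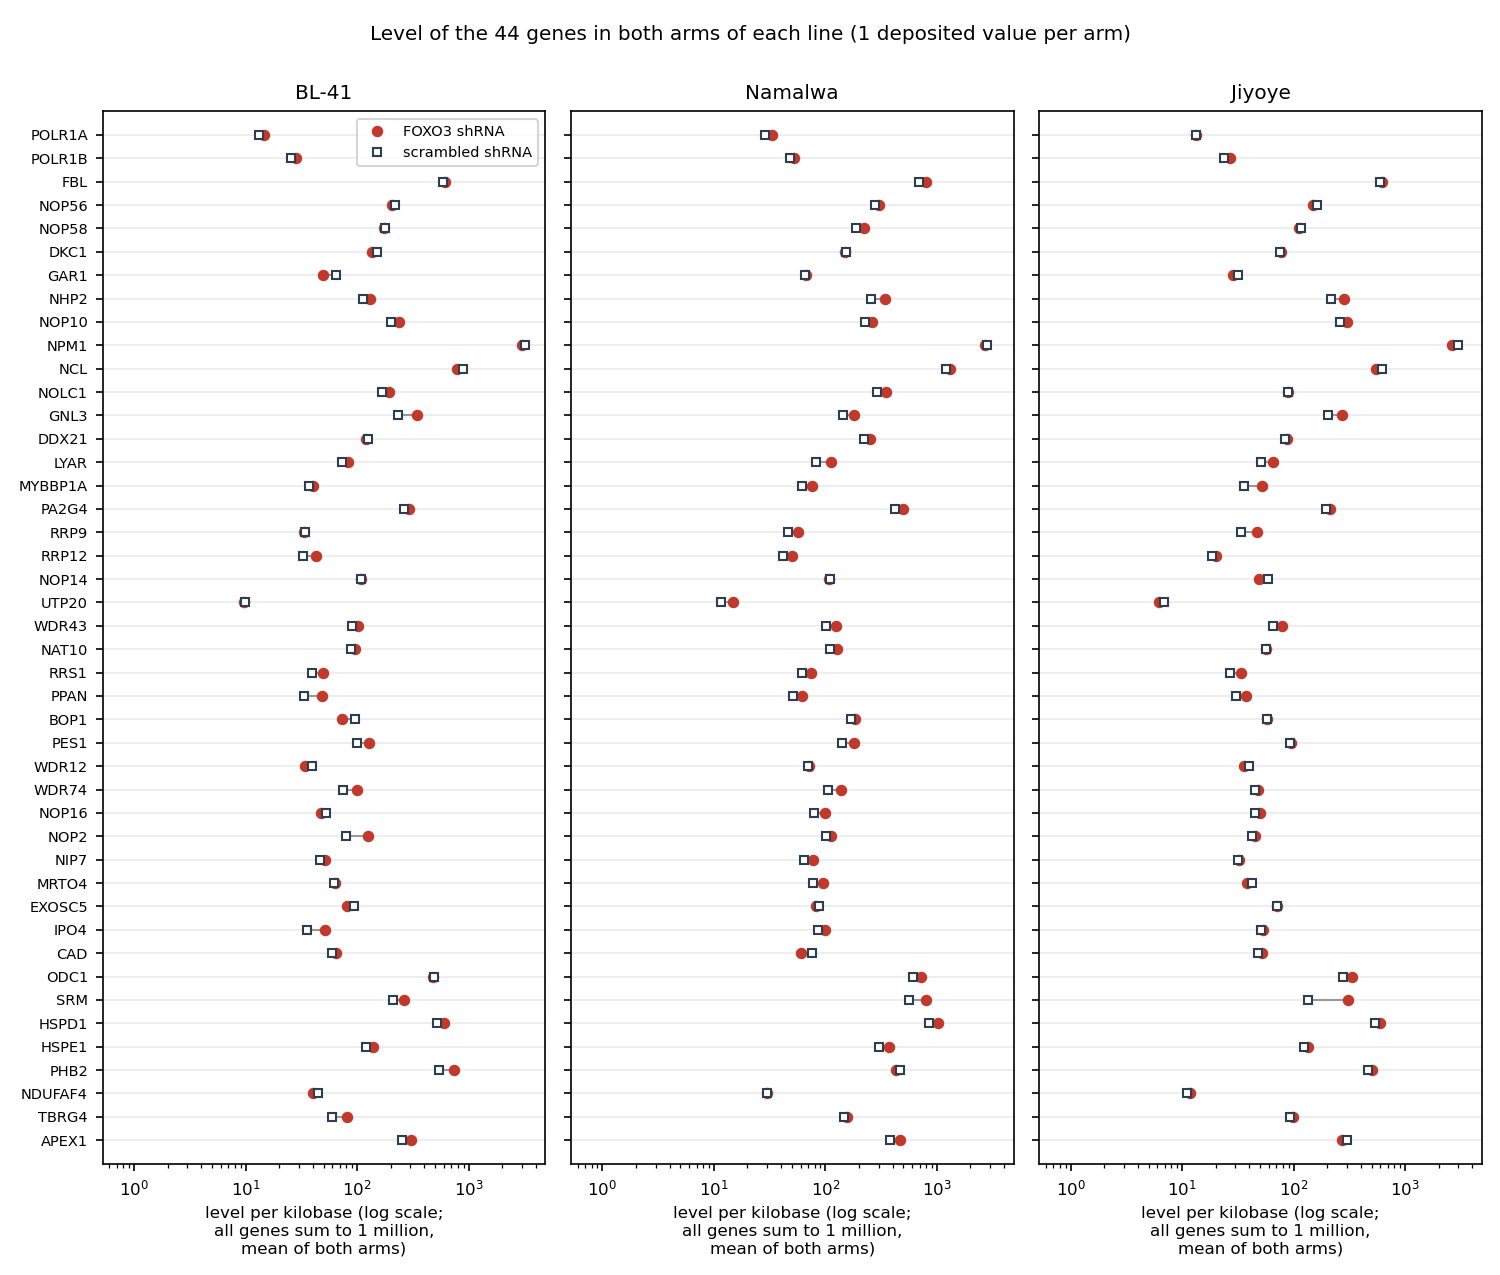
Level per kilobase (log scale, genes of a table summing to 1000000 over the mean of both arms) of the 44 genes in both arms of each line, with filled circles for FOXO3 shRNA and open squares for scrambled shRNA, 1 deposited value per arm. The arms lie close together for most genes, and SRM in Jiyoye, at 309.3 with FOXO3 shRNA and 134.9 with scrambled shRNA, is the widest gap.

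Few of the 44 genes changed, and those that did mostly rose. In BL-41, 10 rose, 1 fell and 33 did not pass the authors' DESeq2 test, that is 25% called, against 28.7% of all 16001 genes (14.5% up and 14.2% down) and 40.7% of the 9884 whose mean reached 100, which all 44 members had. In Namalwa, 4 rose, 1 fell and 39 did not pass, or 11.4% called, against 6.41% of all genes (2.6% up and 3.81% down) and 9.61% of those whose mean reached 100. In Jiyoye, 3 rose and 41 did not pass, or 6.82% called, against 17.4% of all genes (8.69% up and 8.7% down) and 25.5% of those whose mean reached 100. In that line 0 members fell by the authors' DESeq2 test, and 1 had a negative fold change at an unadjusted p under 0.05. The share of members called was thus below that of genes whose mean reached 100 in BL-41 and Jiyoye and close to it in Namalwa. At an unadjusted p under 0.05, 12 members were higher and 2 lower in BL-41, against 18.6% and 18% of all genes. In Namalwa 19 were higher and 1 lower, against 8.06% and 9.21% of all genes. In Jiyoye 6 were higher and 1 lower, against 13.8% and 13.9%, so that the count of higher members there was at the share of all genes. Of genes whose mean reached 100, 2524 were higher and 2503 lower of 9884 in BL-41. The counts were 1145 and 1244 of 9671 in Namalwa, and 1985 and 1965 of 10122 in Jiyoye. Beside these, the count of higher members was close to the share in BL-41, above it in Namalwa and below it in Jiyoye.

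Most members had positive fold changes, whether or not they passed the test. For BL-41, Namalwa and Jiyoye the members' median log2 fold changes were 0.14, 0.23 and 0.10, against 0.02, -0.00 and 0.01 over all genes of the tables. Positive fold changes were found for 28 of 44 members in BL-41, 37 of 44 in Namalwa (84.1%, against 50.9% of genes whose mean reached 100) and 29 of 44 in Jiyoye. The sign was positive in all 3 lines for 21 of 44 members (47.7%), against 30.1% of 8870 genes whose mean reached 100, and negative in all 3 for 3 members (6.82%), against 27.0%. The 34 genes with nucleolar roles had medians of 0.12, 0.23 and 0.06 and the other 10 had 0.24, 0.22 and 0.11 in BL-41, Namalwa and Jiyoye. In BL-41, 5 of the 10 and 5 of the 34 rose, against 14.5% of all genes and 1981 of the 9884 whose mean reached 100. The count of the 34 was close to the first share and below the second. The difference between the 10 and the 34 was not tested. Of the 44 genes, 14 changed in at least 1 line and 30 in none. The share of all genes called in at least 1 line was not computed, so the 14 cannot be read as many or few. GNL3 and SRM rose in all 3 lines, which makes 2 of 44 members called alike, against 3.29% of the genes in all 3 tables, and APEX1 rose in 2 lines. The other 11 changed in 1 line each.

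**Figure D3:**
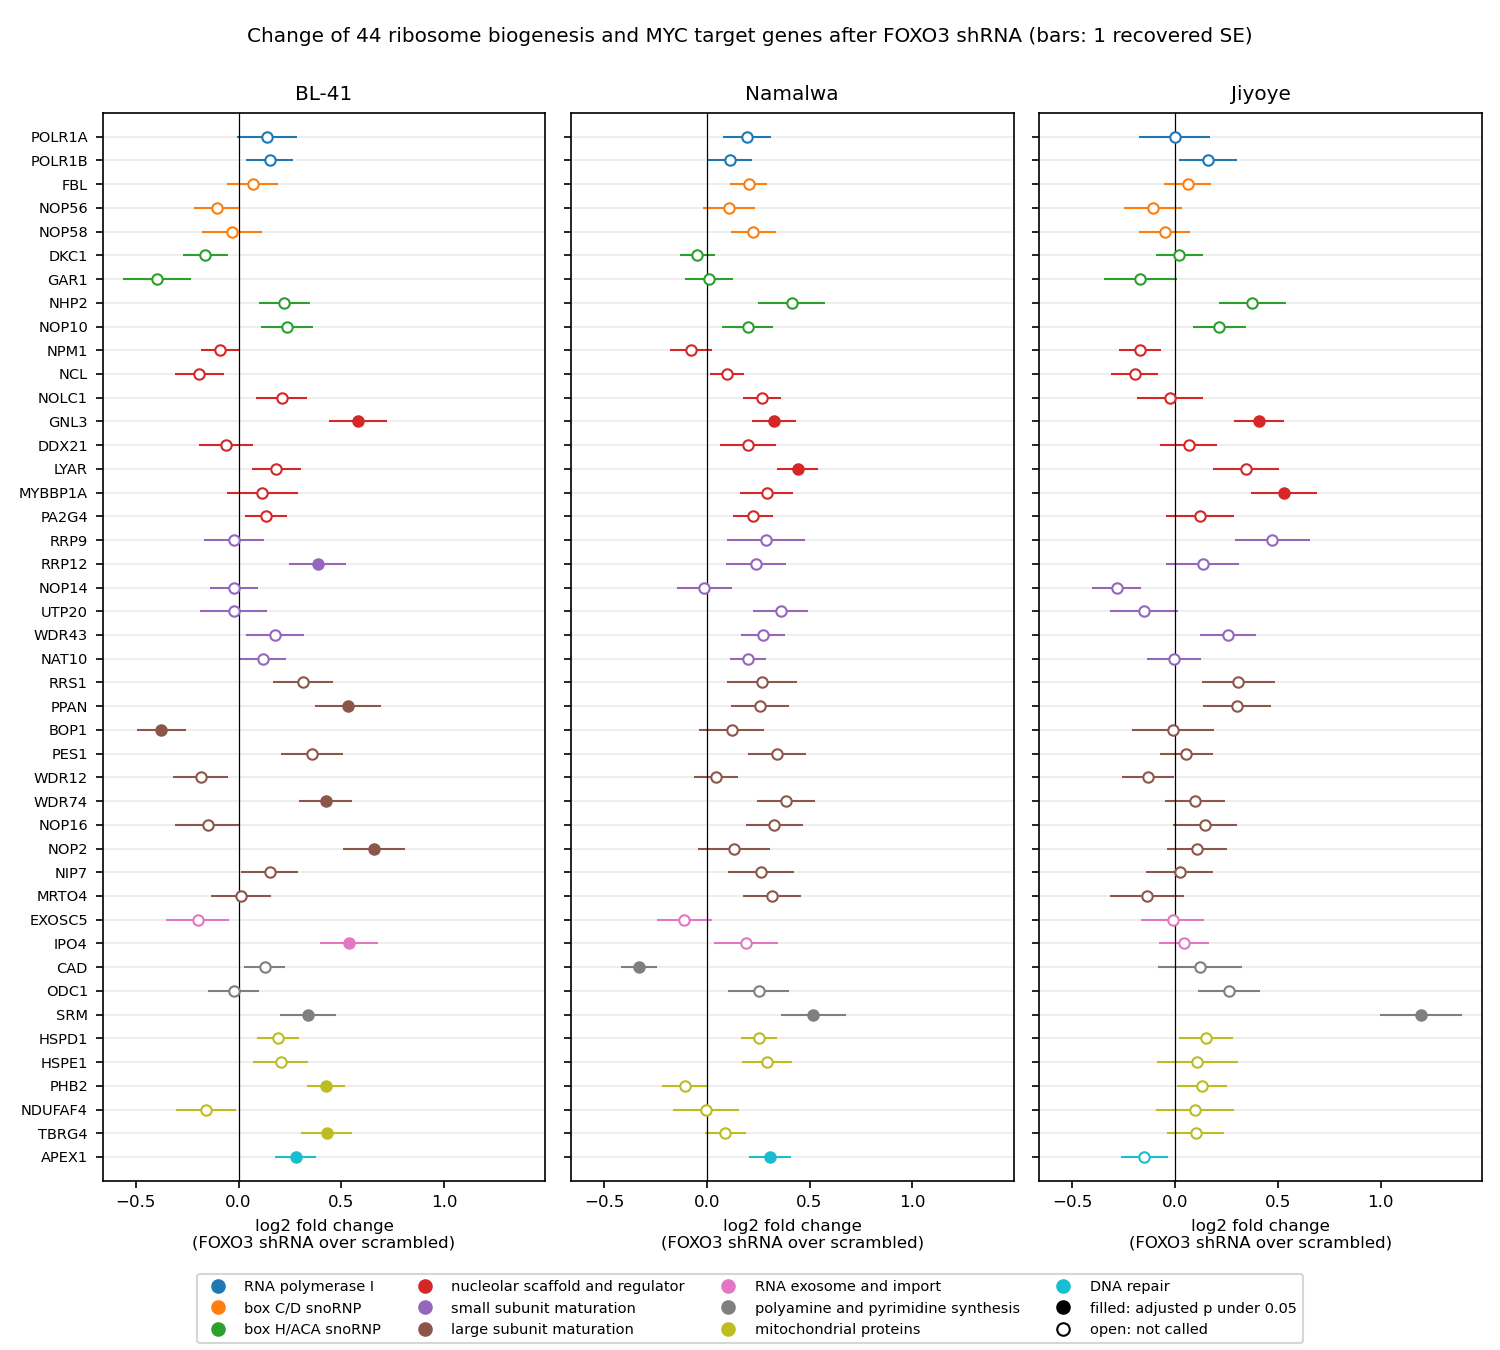
Log2 fold change of FOXO3 shRNA over scrambled shRNA for each of the 44 genes in BL-41, Namalwa and Jiyoye, ordered and coloured by role, with bars of 1 recovered SE and filled points for an adjusted p under 0.05 in the authors' DESeq2 test. GNL3 and SRM are filled in all 3 panels, and SRM in Jiyoye, at 1.20, lies farthest from 0.

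Both members of the RNA polymerase I core, POLR1A and POLR1B, which form its catalytic centre, passed no test. POLR1A had arm values of 1710 with FOXO3 shRNA and 1554 with scrambled shRNA in BL-41, 3648 and 3183 in Namalwa, and 1501 and 1503 in Jiyoye. Those of POLR1B were 1332 with FOXO3 shRNA and 1199 with scrambled shRNA in BL-41, 2313 and 2141 in Namalwa, and 1196 and 1070 in Jiyoye. The wider RNA polymerase I apparatus, a list of 13 genes that holds neither of them, had 5 up and 1 down in BL-41, 1 up in Namalwa and 2 up in Jiyoye. These are 46.2%, 7.69% and 15.4% called. For this list and those below, the called shares of genes whose mean reached 100 were 40.7%, 9.61% and 25.5% in BL-41, Namalwa and Jiyoye. CD3EAP, a polymerase I subunit, rose in all 3 lines in the authors' deposited tables, with log2 fold changes of 0.56 ± 0.20, 0.66 ± 0.16 and 0.66 ± 0.22 (SE). RRN3, the factor that brings the polymerase to the promoter, rose in BL-41, with arm values of 2865 with FOXO3 shRNA and 1764 with scrambled shRNA, and so did the termination factor TTF1, with 853.5 and 510.3. TAF1C, a subunit of the promoter selectivity factor, rose in BL-41 (log2 fold change 0.31) and Jiyoye (0.48) by DESeq2 in the authors' deposited tables.

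The snoRNP proteins did not pass the authors' DESeq2 test in any line, as 0 of 3 box C/D and 0 of 4 box H/ACA members were called. Unadjusted p-values under 0.05 were found for 2 box C/D members in Namalwa, and for 1 box H/ACA member in each line. Fibrillarin, FBL, the rRNA 2'-O-methyltransferase, had arm values of 6611 with FOXO3 shRNA and 6306 with scrambled shRNA in BL-41, 8068 and 7002 in Namalwa, and 6442 and 6175 in Jiyoye. Its partners NOP56 and NOP58 were within 0.11 on the log2 scale of no change in BL-41 and Jiyoye, and NOP58 had a log2 fold change of 0.23 ± 0.11 SE in Namalwa (DESeq2 adjusted p 0.243 in the authors' deposited table). Within the H/ACA particle, the small subunits NHP2 and NOP10 had positive values in every line, whereas the pseudouridine synthase DKC1 and GAR1 had values at or below 0.02. For NHP2, arm values were 1032 with FOXO3 shRNA and 885.1 with scrambled shRNA in BL-41, 2573 and 1933 in Namalwa, and 2139 and 1648 in Jiyoye (DESeq2 adjusted p 0.184, 0.116 and 0.0945 in the authors' deposited tables). GAR1 had 536.8 with FOXO3 shRNA and 707.3 with scrambled shRNA in BL-41 (log2 fold change -0.40 ± 0.17 SE), just outside the threshold (DESeq2 adjusted p 0.0574 in the authors' deposited table). The 10 snoRNP assembly factors listed beside them gave 1 down in BL-41, and 1 up and 1 down in Jiyoye. In Namalwa 0 of the 10 passed DESeq2, with 3 higher and 1 lower at an unadjusted p under 0.05.

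Among the 8 scaffold proteins and regulators of the nucleolus, GNL3, LYAR and MYBBP1A rose. GNL3, nucleostemin, a nucleolar GTPase named for its abundance in stem cells and tumours, rose in every line. Its arm values were 6525 with FOXO3 shRNA and 4360 with scrambled shRNA in BL-41, 3213 and 2559 in Namalwa, and 4865 and 3665 in Jiyoye. On the log2 scale the fold changes of GNL3 in the authors' deposited tables were 0.58 ± 0.14, 0.33 ± 0.11 and 0.41 ± 0.12 (SE), with DESeq2 adjusted p of 0.000278, 0.0396 and 0.00738. LYAR, a zinc-finger nucleolar protein first found as a cell growth regulator, rose in Namalwa, where it had 1508 with FOXO3 shRNA and 1110 with scrambled shRNA (log2 fold change 0.44 ± 0.10 SE, DESeq2 adjusted p 0.000529 in the authors' deposited table). It had 1195 and 1052 in BL-41 and 899 and 706.6 in Jiyoye, both short of the threshold (DESeq2 adjusted p 0.272 and 0.126 in the authors' deposited tables). MYBBP1A, a repressor of rRNA gene transcription, rose in Jiyoye, with 2090 with FOXO3 shRNA and 1447 with scrambled shRNA (log2 fold change 0.53 ± 0.16 SE, DESeq2 adjusted p 0.00951 in the authors' deposited table). Its arm values were 1675 with FOXO3 shRNA and 1546 with scrambled shRNA in BL-41 and 3000 and 2452 in Namalwa.

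The mRNAs of NPM1 and NCL, which had the highest levels per kilobase among the nucleolar members in the scrambled arm of each line, passed no test. NPM1 had negative fold changes in all 3 lines (-0.09, -0.08 and -0.17 on the log2 scale), and none passed the authors' DESeq2 test (adjusted p 0.567, 0.845 and 0.282 in their deposited tables). Nucleolin, NCL, which binds precursor rRNA, had 19602 with FOXO3 shRNA and 22387 with scrambled shRNA in BL-41, 30810 and 28779 in Namalwa, and 13166 and 15093 in Jiyoye, again without a call. NOLC1, a phosphoprotein that shuttles with snoRNPs, had 11980 with FOXO3 shRNA and 9951 with scrambled shRNA in Namalwa (log2 fold change 0.27, DESeq2 adjusted p 0.0612 in the authors' deposited table). DDX21, an RNA helicase, and PA2G4, a growth-regulated RNA-binding protein, lay between -0.06 and 0.23 over the 3 lines and passed no test.

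Small subunit maturation was represented by 6 members, of which RRP12, a factor for export of the precursor, rose in BL-41. It had 1738 with FOXO3 shRNA and 1331 with scrambled shRNA (log2 fold change 0.39 ± 0.14 SE, DESeq2 adjusted p 0.0228 in the authors' deposited table), against 1912 and 1619 in Namalwa and 793.5 and 723.4 in Jiyoye. RRP9, a protein of the U3 snoRNP, came nearest to a call in Jiyoye, with 653 with FOXO3 shRNA and 470.2 with scrambled shRNA (log2 fold change 0.47 ± 0.18 SE, DESeq2 adjusted p 0.0522 in the authors' deposited table). NOP14, which guides the cut of the precursor, had the lowest value there (log2 fold change -0.28, DESeq2 adjusted p 0.0824 in the authors' deposited table). In Namalwa 0 of the 6 were called by DESeq2, 3 were higher at an unadjusted p under 0.05, and UTP20 had the largest value (log2 fold change 0.36, DESeq2 adjusted p 0.0818 in the authors' deposited table). WDR43 and the rRNA acetyltransferase NAT10 stayed between -0.00 and 0.27. Of 54 further genes of the small subunit processome and 40S maturation, 10 rose and 7 fell in BL-41, 5 rose in Namalwa, and 3 rose and 4 fell in Jiyoye. These are 31.5%, 9.26% and 13.0% called. BYSL, needed for late small subunit assembly, rose in BL-41 (log2 fold change 0.58) and Jiyoye (0.66), while UTP6, a processome component, fell in both (-0.55 and -0.62), by DESeq2 in the authors' deposited tables. EMG1, an rRNA methyltransferase, fell in BL-41, with 289.4 with FOXO3 shRNA and 472.4 with scrambled shRNA.

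Of the 10 large subunit factors, 3 rose and 1 fell in BL-41, which makes 4 of the 11 members called in that line. That is 40% called, close to the 40.7% of genes whose mean reached 100. NOP2, an rRNA cytosine methyltransferase, had arm values of 3123 with FOXO3 shRNA and 1980 with scrambled shRNA there (log2 fold change 0.66 ± 0.15 SE, DESeq2 adjusted p 0.000133 in the authors' deposited table). In the other lines NOP2 had 2623 with FOXO3 shRNA and 2394 with scrambled shRNA in Namalwa and 1085 and 1008 in Jiyoye, neither called. PPAN, the human counterpart of a yeast assembly factor, rose in BL-41, with 1079 with FOXO3 shRNA and 745.5 with scrambled shRNA (log2 fold change 0.53 ± 0.16 SE, DESeq2 adjusted p 0.00545 in the authors' deposited table). Reads of PPAN may be shared with the readthrough gene PPAN-P2RY11, which the tables list apart. WDR74, which helps to remodel pre-60S particles, also rose in BL-41, with 1247 with FOXO3 shRNA and 929.9 with scrambled shRNA (log2 fold change 0.42, DESeq2 adjusted p 0.00556 in the authors' deposited table).

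BOP1, PES1 and WDR12 form a stable trimer, the PeBoW complex, needed for processing of the 32S precursor. Of the 3 mRNAs, that of BOP1 alone passed the test in BL-41. It fell, with 1626 with FOXO3 shRNA and 2111 with scrambled shRNA (log2 fold change -0.38 ± 0.12 SE, DESeq2 adjusted p 0.00824 in the authors' deposited table), whereas PES1 had 2706 and 2110 (0.36 ± 0.15 SE, adjusted p 0.0581) and WDR12 had 721.9 and 820.9 (-0.19 ± 0.14 SE, adjusted p 0.352). In Namalwa the log2 fold changes of BOP1, PES1 and WDR12 were 0.12, 0.34 and 0.04, and in Jiyoye -0.01, 0.05 and -0.13, with no call. All 10 large subunit members had positive fold changes in Namalwa, between 0.04 and 0.38, although 0 passed the authors' DESeq2 test and 4 had an unadjusted p under 0.05. Jiyoye also had 0 of 10 by DESeq2, and 0 at an unadjusted p under 0.05. The positive lean in Namalwa was not particular to these 10. Positive there were 48 of 60 further large subunit genes, 47 of 54 further small subunit genes and 17 of 19 mitochondrial chaperone and import genes. Less of a lean was found for 8 of 13 further exosome genes, 5 of 10 further polyamine and hypusine genes and 4925 of 9671 genes whose mean reached 100. RRS1, a carrier of the 5S ribonucleoprotein, had similar values in the 3 lines (0.31, 0.27 and 0.31), none called. NOP16, NIP7 and MRTO4 lay between -0.15 and 0.33. Of 60 further genes of large subunit assembly, 16 rose and 6 fell in BL-41, 5 rose in Namalwa, and 4 rose and 5 fell in Jiyoye. These are 36.7%, 8.33% and 15% called. The helicase DDX51 rose in all 3 lines in the authors' deposited tables, with log2 fold changes of 1.02 ± 0.13, 0.59 ± 0.12 and 0.58 ± 0.14 (SE), and the assembly factor BRIX1 did so at 0.50, 0.32 and 0.50. NOC2L rose in BL-41 and Namalwa (0.53 and 0.36), SBDS, a release factor for pre-60S particles, did likewise (0.39 and 0.41), and NOC3L fell in BL-41 and Jiyoye (-0.32 and -0.64), by DESeq2 in the authors' deposited tables.

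**Figure D4:**
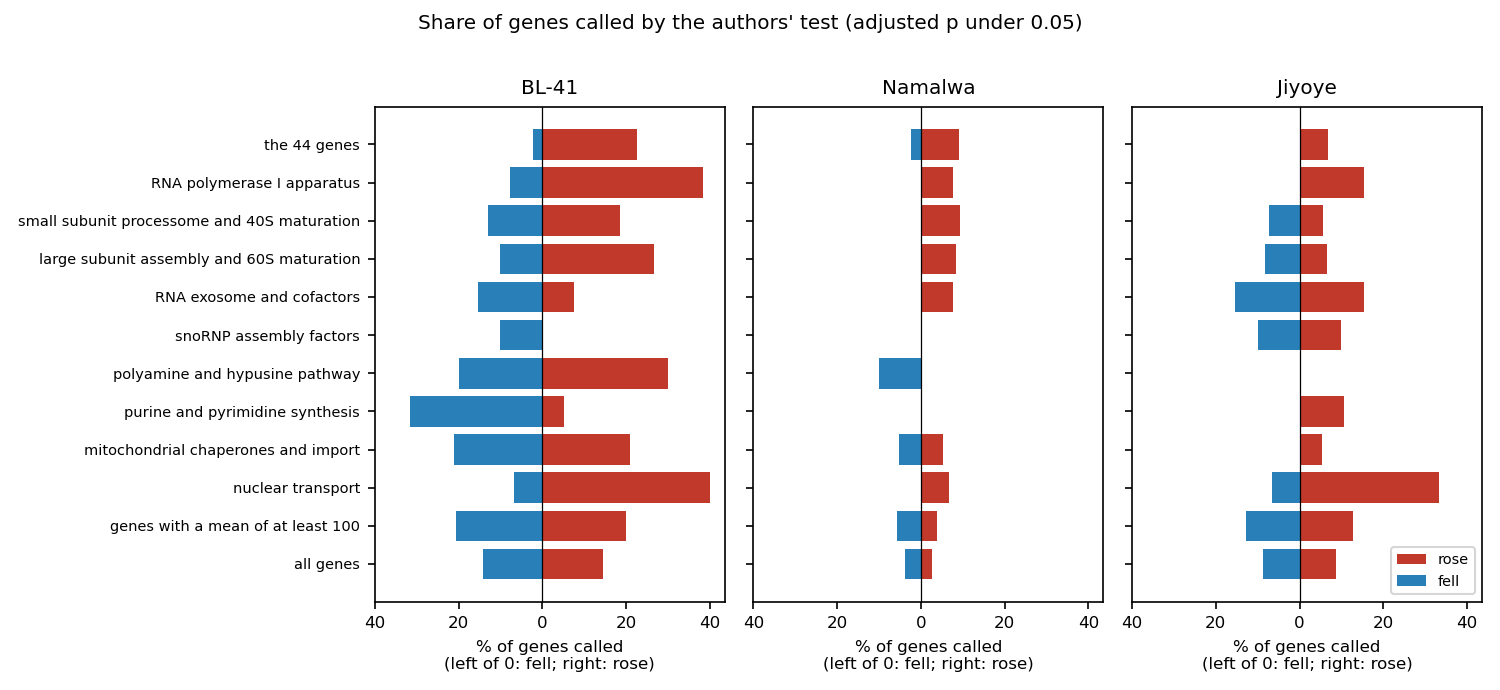
Share of genes called by the authors' DESeq2 test at an adjusted p under 0.05, in % of the genes of each list, to the right for genes that rose and to the left for genes that fell, in each line. The bottom bars give genes whose mean arm value reached 100 and all genes, and over all genes the called share was 28.7% for BL-41, 6.41% for Namalwa and 17.4% for Jiyoye. Among genes whose mean reached 100 it was 40.7%, 9.61% and 25.5%.

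EXOSC5, a subunit of the RNA exosome that trims precursor rRNA, passed no test, with 744.4 with FOXO3 shRNA and 855.2 with scrambled shRNA in BL-41, 710.2 and 766 in Namalwa, and 626.3 and 631.6 in Jiyoye. Of 13 further exosome genes, 1 rose and 2 fell in BL-41, 1 rose in Namalwa, and 2 rose and 2 fell in Jiyoye. IPO4, an importin for ribosomal proteins and histones, rose in BL-41, where it had 1703 with FOXO3 shRNA and 1175 with scrambled shRNA (log2 fold change 0.54 ± 0.14 SE, DESeq2 adjusted p 0.00108 in the authors' deposited table). It had 3073 and 2693 in Namalwa and 1678 and 1630 in Jiyoye, without a call. The nuclear transport list of 15 other genes had 6 up and 1 down in BL-41, 1 up in Namalwa, and 5 up and 1 down in Jiyoye. These are 46.7%, 6.67% and 40% called. IPO7, another importin for ribosomal proteins, rose in BL-41 (log2 fold change 0.86) and Jiyoye (0.47) by DESeq2 in the authors' deposited tables.

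SRM, spermidine synthase, which makes a polyamine needed for the hypusine on the translation factor eIF5A, rose in every line and gave the largest change among the members. In Jiyoye its arm values were 3477 with FOXO3 shRNA and 1516 with scrambled shRNA, a 2.29-fold difference (log2 fold change 1.20 ± 0.20 SE, DESeq2 adjusted p 1.02e-07 in the authors' deposited table). They were 8824 with FOXO3 shRNA and 6160 with scrambled shRNA in Namalwa (log2 fold change 0.52 ± 0.16 SE, DESeq2 adjusted p 0.0227 in the authors' deposited table). BL-41 had 3084 with FOXO3 shRNA and 2441 with scrambled shRNA (log2 fold change 0.34 ± 0.14 SE, DESeq2 adjusted p 0.0456 in the authors' deposited table). Ornithine decarboxylase, ODC1, the enzyme before it in the pathway, did not pass, with 9393 with FOXO3 shRNA and 9549 with scrambled shRNA in BL-41, 13282 and 11158 in Namalwa, and 6381 and 5328 in Jiyoye. CAD, the enzyme that starts pyrimidine synthesis, fell in Namalwa, with 3759 with FOXO3 shRNA and 4728 with scrambled shRNA (log2 fold change -0.33 ± 0.09 SE, DESeq2 adjusted p 0.00599 in the authors' deposited table). CAD had 4203 and 3849 in BL-41 and 3266 and 3005 in Jiyoye.

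The further polyamine and hypusine genes, 10 in number, gave 3 up and 2 down in BL-41 and 1 down in Namalwa. In Jiyoye 0 passed DESeq2, with 1 higher and 2 lower at an unadjusted p under 0.05. DHPS, which makes hypusine, fell in BL-41 and Namalwa (log2 fold changes of -0.75 and -0.46 by DESeq2 in the authors' deposited tables) and stood at -0.33 in Jiyoye (DESeq2 adjusted p 0.0663 there). Of 19 other genes of purine and pyrimidine synthesis, 1 rose and 6 fell in BL-41, 2 rose in Jiyoye, and 0 passed DESeq2 in Namalwa, where 2 were higher at an unadjusted p under 0.05. IMPDH2, the rate-limiting enzyme of guanine nucleotide synthesis, was the gene that rose in BL-41 (log2 fold change 0.81), and CTPS1, which makes CTP, was among those that fell (-0.82), by DESeq2 in the authors' deposited tables.

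PHB2 and TBRG4 were the mitochondrial members that rose, both in BL-41. PHB2, a prohibitin of the inner membrane, had 9759 with FOXO3 shRNA and 7258 with scrambled shRNA there (log2 fold change 0.43 ± 0.09 SE, DESeq2 adjusted p 5.31e-05 in the authors' deposited table), the smallest adjusted p among the members in that line. It had 5394 and 5810 in Namalwa and 6498 and 5929 in Jiyoye, neither called. TBRG4, a regulator of mitochondrial mRNA, had 1602 with FOXO3 shRNA and 1189 with scrambled shRNA in BL-41 (log2 fold change 0.43 ± 0.12 SE, DESeq2 adjusted p 0.00318 in the authors' deposited table). The chaperonin pair HSPD1 and HSPE1, whose start sites share the printed E-box, had values of one sign and like size: 0.19 and 0.20 in BL-41, 0.25 and 0.29 in Namalwa, and 0.15 and 0.11 in Jiyoye on the log2 scale, with no call. HSPE1 reads may be shared with the readthrough gene HSPE1-MOB4. NDUFAF4, an assembly factor of respiratory complex I, had 881 with FOXO3 shRNA and 982 with scrambled shRNA in BL-41, 625.6 and 626.8 in Namalwa, and 249.3 and 233.1 in Jiyoye. The list of 19 other mitochondrial chaperone and import genes had 4 up and 4 down in BL-41, 1 up and 1 down in Namalwa, and 1 up in Jiyoye. CLPP, a protease of the matrix, fell in BL-41 and Namalwa, with log2 fold changes of -1.08 and -0.50 by DESeq2 in the authors' deposited tables.

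APEX1 rose in BL-41, with arm values of 4317 with FOXO3 shRNA and 3559 with scrambled shRNA (log2 fold change 0.28 ± 0.10 SE, DESeq2 adjusted p 0.0216 in the authors' deposited table), and in Namalwa, with 6284 and 5075 (0.31 ± 0.10 SE, adjusted p 0.0408). In Jiyoye it had 3698 with FOXO3 shRNA and 4104 with scrambled shRNA (log2 fold change -0.15 ± 0.11 SE, DESeq2 adjusted p 0.439 in the authors' deposited table). It was the member with the most E-boxes in its window.

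Whether the lines differed in their response was tested gene by gene, as the difference of fold changes over its SE, adjusted over all genes of both tables. Between BL-41 and Namalwa, 2 of 44 members passed, against 7.03% of all genes, and 8 had an unadjusted p under 0.05. The fold change of PHB2 was higher in BL-41 by a log2 difference of 0.53 ± 0.15 SE (z test, adjusted p 0.00852), and that of CAD by 0.46 ± 0.13 SE (z test, adjusted p 0.0149). Between BL-41 and Jiyoye, SRM was the 1 member that passed, against 6.25% of all genes, with a log2 difference of -0.86 ± 0.24 SE (z test, adjusted p 0.0118), and 5 had an unadjusted p under 0.05. Between Namalwa and Jiyoye 0 members passed the z test, against 2.75% of all genes, and 6 had an unadjusted p under 0.05. SRM had a log2 difference of -0.68 (z test, adjusted p 0.139) and APEX1 of 0.46 (z test, adjusted p 0.0727) in that pair. For the unadjusted counts of 8, 5 and 6, the share of all genes was not computed, so they cannot be read as a result about the members. MYC itself differed between BL-41 and Namalwa by -0.91 on the log2 scale (z test, adjusted p 0.00108) and between BL-41 and Jiyoye by -0.75 (z test, adjusted p 0.00907), while the members' median difference was -0.09 and 0.02 in these pairs. In Namalwa against Jiyoye the MYC difference was 0.15 (z test, adjusted p 0.809). With every SE multiplied by 1.5, the MYC differences no longer passed the z test (adjusted p 0.320 against Namalwa and 0.544 against Jiyoye), nor did those of PHB2 (0.513), CAD (0.573) and SRM (0.578).

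**Figure D5:**
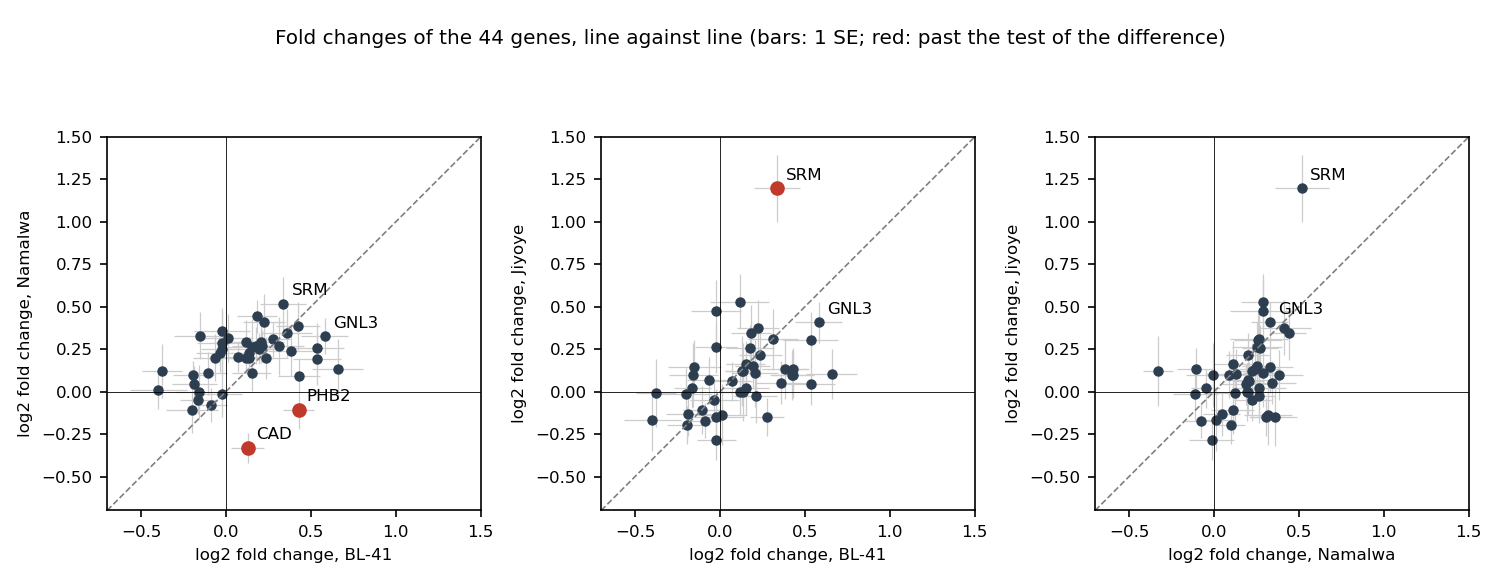
Log2 fold changes of the 44 genes in 1 line against another, with bars of 1 SE, the diagonal of equal change dashed, and larger red points for genes past the test of the difference. PHB2 and CAD stand below the diagonal in BL-41 against Namalwa, and SRM stands above it in BL-41 against Jiyoye, where its fold changes were 0.34 and 1.20.

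Members with and without the E-box were set side by side, with no test. In BL-41, Namalwa and Jiyoye the 22 with the word had median log2 fold changes of 0.15, 0.26 and 0.09, against 0.13, 0.11 and 0.10 for the 17 without it. Of those with the word, 5, 4 and 3 rose in BL-41, Namalwa and Jiyoye. Of those without it, 4 rose in BL-41, and in Namalwa and Jiyoye 0 rose by the authors' DESeq2 test, while CAD fell in Namalwa. Among genes with the word whose mean reached 100, 220 of 1090, 50 of 1084 and 145 of 1109 rose in BL-41, Namalwa and Jiyoye. Without the word, 1427 of 7161, 257 of 6995 and 891 of 7324 rose. The 3 members with the word that rose in Jiyoye were thus close to the share of such genes. Among genes whose mean reached 100 in a line, the medians with the word were 0.01, 0.03 and 0.02, against -0.00, 0.00 and -0.00 without it. A second feature, found in a minority of the members, was the hosting of snoRNA genes within the span of the gene, on the same strand. Whether they lay in introns was not examined. In GENCODE 44, 10 of the 44 members (22.7%) carried a snoRNA gene or a gene of the related scaRNA class inside them, 30 in all, against 2.20% of 8617 genes whose mean reached 100. PHB2 was counted through SCARNA12 alone. GNL3 hosts 6, not all of them with a gene name, NOP56 5 and NOP58 4, and NCL, WDR43 and TBRG4 host 3 each. Hosts had median log2 fold changes of 0.08, 0.17 and 0.12 in BL-41, Namalwa and Jiyoye, against 0.14, 0.23 and 0.08 for the 34 other members. Oligo-dT libraries do not measure the snoRNAs themselves.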

How the data were processed

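The 18 mRNA libraries form 6 groups. Per the series' design text, SOAPnuke filtered the reads. The submitters' processing notes name hg38, Bowtie2 for mapping, RSEM for expression and, for the authors' own tests, DESeq2, all without versions. The authors deposited 1 table per line, with a normalized, moderated signal value for each arm and none for single libraries. The deposited log2 fold change equals the log2 ratio of the arm values (largest difference 1.39e-14). The deposited p-value and adjusted p-value are those of the authors' DESeq2 test, and the Benjamini-Hochberg adjustment recomputed over each table equalled the deposited one (largest difference 3.56e-15). Depth per library is not given in the sources used here, so precision is given by the recovered SE, with a median of 0.13, 0.13 and 0.15 over the members in BL-41, Namalwa and Jiyoye.

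Rows were taken by symbol. Dividing the log2 fold change by the normal quantile that matches its p gave the SE. Differences between lines were tested with a two-sided z test, adjusted within each of 3 pairs. A run on simulated data took the recovered SE as true, so it could not test whether the SE were right. All members could be named, with full statistics for those called in 2 or more lines, the 5 with the smallest adjusted p per direction in each line and those past a test of a difference; of other lists, the 3 genes with the smallest adjusted p per line could be named. The members and lists were chosen with earlier results of these data known. Promoters came from RefSeq (GRCh38.p14) and snoRNA and scaRNA genes from GENCODE 44, on the same hg38 assembly. Protein sequences were not used here. Alternatives were an adjusted p of 0.01, adjustment over genes whose mean reached 100, centred fold changes, SE multiplied by 1.5, and the 34 nucleolar members alone, the last chosen after seeing the data. Calculations ran in Python 3.11.15 with scipy 1.17.1, pandas 2.3.3 and numpy 2.4.6, and plots in matplotlib 3.10.9.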

Additional observations from a re-analysis of the deposited data

Results flagged for a closer look

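Some fold changes differed between lines by a z test of the difference, adjusted over all genes of the pair. Among the members, the log2 fold change was higher in BL-41 than in Namalwa by 0.53 for PHB2 and by 0.46 for CAD, and SRM differed by -0.86 between BL-41 and Jiyoye. MYC differed by -0.91 between BL-41 and Namalwa and by -0.75 between BL-41 and Jiyoye. The difference of FOXO3 itself between Namalwa and Jiyoye was -0.80. With every SE multiplied by 1.5, none of these 6 differences passed the z test, and that of FOXO3 had an adjusted p of 0.941.

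Among listed genes beside the members, IMPDH2 differed by 0.85 between BL-41 and Namalwa and by 0.80 between BL-41 and Jiyoye, CTPS1 by -0.72 and IPO7 by 0.62 between BL-41 and Namalwa, TTF1 by 0.72 and RRN3 by 0.66 between BL-41 and Jiyoye, and NOC3L by 0.77 between Namalwa and Jiyoye. The myeloid markers LYZ and CD68 differed by 1.34 between BL-41 and Namalwa and by 1.45 between BL-41 and Jiyoye. These genes were named for their small adjusted p in at least 1 line, so their differences are a description of the largest changes.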

How the results depend on the processing

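Of 420 recomputed values of single genes, 400 kept their direction and side of the threshold, 15 lost the call, 5 gained a call and 0 reversed. Much of this was fixed beforehand. Of the 400, 138 came from centring, which moved fold changes by 0.0002, 0.0044 and 0.0041 in BL-41, Namalwa and Jiyoye. A stricter threshold cannot move a gene without a call. Among these values, SE multiplied by 1.5 was applied only to 6 differences between lines, and all 6 lost the call. The total is therefore no measure of robustness. At an adjusted p of 0.01, the calls were 2 in Namalwa instead of 5, the differences 1 instead of 2 for BL-41 minus Namalwa and 0 instead of 1 for BL-41 minus Jiyoye, and the members called alike in all 3 lines 0 instead of 2 (0 by the authors' DESeq2 test at that threshold, 2 at 0.05). With the 34 nucleolar members alone, 6 were called in BL-41 instead of 11 and 2 in Namalwa instead of 5. Genes whose mean reached 100 gave 2 differences for BL-41 minus Jiyoye, with APEX1 added (z test, adjusted p 0.0485), and gained calls for GAR1 and PES1 in BL-41, NOLC1 and HSPD1 in Namalwa and RRP9 in Jiyoye. With SE multiplied by 1.5, 0 differences passed the z test in either BL-41 pair, which had 8 and 5 at an unadjusted p under 0.05 with the recovered SE. The share of all genes at that unadjusted threshold was not computed. The tables give no depth, so the recovered SE limits what each line can show. No paired analysis was possible because the columns hold 1 value per arm and carry no replicate numbers, and leaving out each replicate was not run for the same reason.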
